A study of Mus musculus with 6 samples.

Results

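Sting1 and 9 genes that act with it in the cGAS-STING pathway (Cgas, Tbk1, Irf3, Ikbke, Trex1, Enpp1, Samhd1, Ifi204 and Nlrc3) were followed across the cells of diseased mouse livers. They were taken by symbol from the deposited gene table, in which all 10 of them are listed among 31253 genes. The study made single-cell RNA libraries with the 10x Chromium 3' kit from dissociated livers of 6 mice, 3 Stingfl/fl Cdh5-Cre+ mice (knockout) and 3 Stingfl/fl Cdh5-Cre- littermates (control). Both groups carried the floxed Sting alleles, were kept on chow until 8 weeks of age, and then received a western diet with the liver toxin CCl4 (WD-CCl4) for 12 weeks, a model of metabolic dysfunction-associated steatohepatitis (MASH). No untreated or chow-fed group was analysed here, so every level below is that of a diseased liver. The question that the design poses for these genes is where the pathway is expressed, and how its genes differ when Sting1 is deleted in the cells that express the Cre.

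cGAS is an enzyme that binds double-stranded DNA in the cytosol and makes the cyclic dinucleotide cGAMP. cGAMP binds STING, encoded by Sting1, in the membrane of the endoplasmic reticulum; STING then moves to the Golgi and recruits the kinase TBK1, which phosphorylates the transcription factor IRF3 and starts the transcription of type I interferon and other cytokine genes. In the liver the pathway is best known in Kupffer cells and other macrophages and in sinusoidal endothelial cells, where DNA released by injured hepatocytes is a trigger. Cdh5 encodes VE-cadherin, the adhesion protein of endothelial junctions, and its promoter drives the Cre of the knockout mice. Constitutive Cdh5-Cre lines are known to recombine also in the hemogenic endothelium from which blood cells descend, so that a share of blood cells can carry the deletion too. The labels do not say whether the Cre was inducible or which exons are floxed. A 3' kit counts the end of a transcript, and a message that lost exons upstream of the counted end can still be counted, so the Sting1 counts here do not measure how much functional message was left.

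The 6 libraries held between 55017937 and 73867890 unique molecular identifiers (UMIs, each 1 counted RNA molecule) in 5133 to 9212 cell barcodes, 44656 in all, of which 41744 were kept. Any 2 libraries shared at most 0.328% of the barcodes of the smaller one. The samples are labelled as sinusoidal endothelium of the liver, but the kept cells were mostly lymphocytes, with 15778 T-like, 8311 B-like and 2660 NK or ILC1-like cells. There were 2652 endothelial-like cells, and only 227 of those had sinusoidal markers (cluster 29, with Stab2, Mrc1 and Clec4g among its leading genes). The other classes were mesothelial-like (2923 cells), cholangiocyte-like (2272), neutrophil-like (1058), cDC1-like (945, type 1 conventional dendritic cells), plasma-like (789), smooth muscle or mural-like (709), stellate or fibroblast-like (541), mature dendritic-like (290) and plasmacytoid dendritic-like (179) cells, and 2637 cells stayed unnamed. No cluster took the name of macrophages. Of the 41744 kept cells, C1qa had a UMI in 44, C1qb in 79, Marco in 2 and Clec4f in 1. Csf1r, also on the macrophage marker list, had a UMI in 2650 cells, and the monocyte marker Ly6c2 in 7069. The macrophages in which hepatic STING is best known could therefore not be described as a class. Cdh5 had 581 to 667 CPM (UMIs of the gene per 1000000 UMIs) in the endothelial-like cells of the control mice. It was also found in plasmacytoid dendritic-like cells, at 83.8 to 97.4 CPM, and varied from 12.9 to 56.5 CPM in smooth muscle or mural-like cells; in all other classes it stayed below 15 CPM.

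The kinases TBK1 and IKKε (encoded by Ikbke) are paralogs that phosphorylate IRF3, and their genes differed in how evenly they were spread over the cell classes, so the sequence upstream of each is shown here, with that of Nlrc3, which was found mainly in lymphocytes. Of the 10 genes, 8 had an entry in the RefSeq promoter table (build GRCm38.p6); Sting1 and Ifi204 had none. Each sequence below is the 200 bases that end 50 bases before the annotated start, read 5' to 3' on the gene's own strand, and capitals mark every CpG dinucleotide.
Tbk1, chr10:121586845-121587044, minus strand: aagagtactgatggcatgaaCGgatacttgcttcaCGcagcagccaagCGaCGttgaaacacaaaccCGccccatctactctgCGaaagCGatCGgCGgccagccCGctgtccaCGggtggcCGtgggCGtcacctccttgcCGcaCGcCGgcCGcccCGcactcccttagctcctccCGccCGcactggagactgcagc
Ikbke, chr1:131279614-131279813, minus strand: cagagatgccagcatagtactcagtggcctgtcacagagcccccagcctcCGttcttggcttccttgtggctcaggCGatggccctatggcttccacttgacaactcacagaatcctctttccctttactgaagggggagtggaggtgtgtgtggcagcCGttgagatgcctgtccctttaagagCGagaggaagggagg
Nlrc3, chr16:3976683-3976882, minus strand: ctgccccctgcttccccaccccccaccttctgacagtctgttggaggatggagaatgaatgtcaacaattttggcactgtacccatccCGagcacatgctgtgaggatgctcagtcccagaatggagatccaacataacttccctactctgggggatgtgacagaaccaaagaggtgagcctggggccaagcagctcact
The Tbk1 window held 20 CpGs, a number reached by 9.50% of the 32851 promoters in the table, whose median was 4. The Ikbke window held 4 (54.2% of promoters have as many) and the Nlrc3 window 1 (89.1%). Among the others, Samhd1 had 17, Enpp1 15, Irf3 14 and Cgas 6 CpGs. These are counts of letters in a fixed window and were not tested against the levels that follow.

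Levels in each cell class are given first. A level is the CPM of the UMIs summed over all cells of a class in 1 mouse, and a mean ± SD is over the 3 control mice unless stated; these levels describe the classes and were not tested. In the plot of mean levels by class, Tbk1, Irf3 and Samhd1 were found in nearly every class, whereas Sting1, Cgas, Ifi204, Ikbke, Enpp1 and Nlrc3 each had classes in which they were close to 0. Among the 10 classes that had 20 or more cells in each of the 6 mice, the highest class mean divided by the lowest was 4.12 for Irf3 and 4.94 for Tbk1. It was 11.3 for Samhd1, 24.9 for Cgas, 31.7 for Nlrc3, 57.9 for Ikbke and 63.2 for Sting1. The ratio was largest for Enpp1 (104) and Ifi204 (281), with 3 and 6 control UMIs behind their lowest classes. The CpG counts above did not follow this order throughout, since Enpp1, with 15 CpGs, was less evenly spread than Ikbke with 4. A comparison between genes on this scale is of how unevenly a gene is spread, not of how much of it there is, since the 3' counts carry no length correction.

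**Figure D1:**
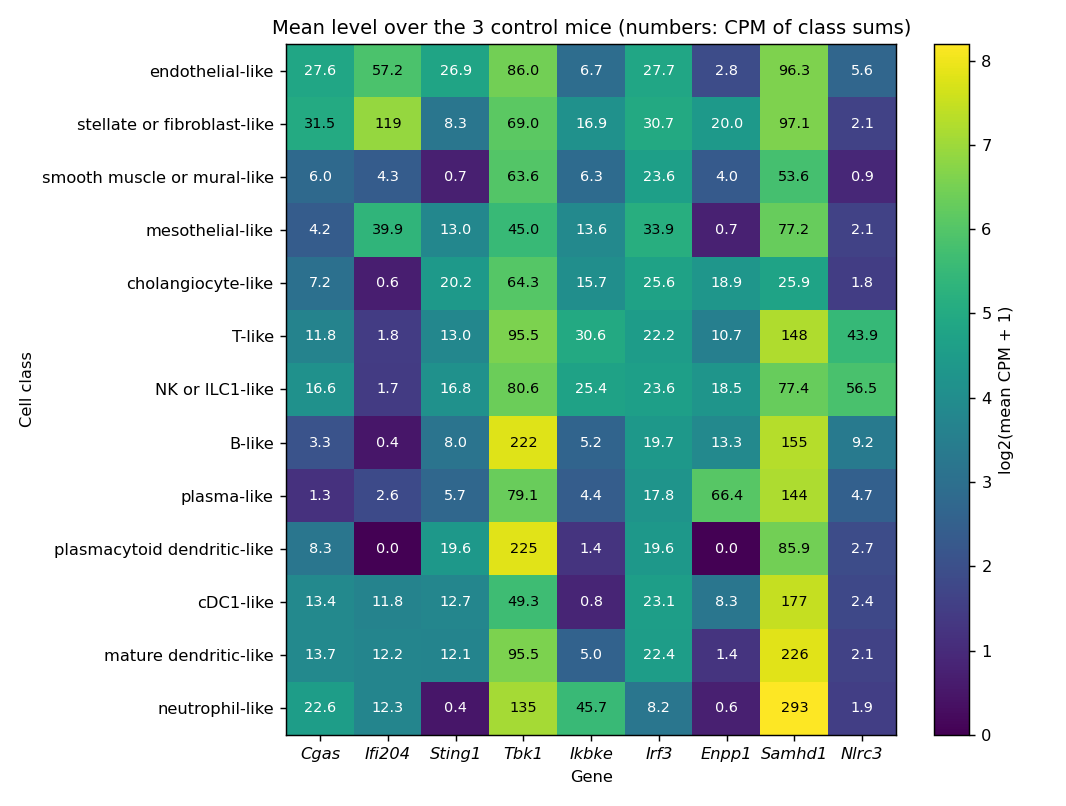
Mean level (CPM of class sums over the 3 control mice, printed in each cell; colour on a log2(CPM + 1) scale) of 9 genes (columns) in 13 cell classes (rows); Trex1 had no UMI. Tbk1 reaches 222 CPM in B-like cells, Enpp1 66.4 CPM in plasma-like cells and Nlrc3 56.5 CPM in NK or ILC1-like cells, and Sting1 is highest in endothelial-like cells.

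Sting1, the adaptor, was highest in the endothelial-like cells, at 26.9 ± 0.37 CPM (SD, n = 3 control mice). Cholangiocyte-like cells, the epithelium of the bile ducts, followed at 20.2 ± 1.47 CPM, and no control mouse there reached the lowest endothelial-like value of 26.6 CPM. Next came plasmacytoid dendritic-like cells (19.6 ± 4.39 CPM, from only 11 UMIs in 59 cells) and NK or ILC1-like cells (16.8 ± 1.60 CPM); the plasmacytoid range overlapped with both of its neighbours, and the lowest NK or ILC1-like value of 15.3 CPM was above every mesothelial-like value. Mesothelial-like (13 ± 1.92), T-like (13 ± 1.44), cDC1-like (12.7 ± 0.62) and mature dendritic-like cells (12.1 ± 1.84) could not be ordered, since their ranges overlapped. Stellate or fibroblast-like cells had 8.28 ± 4.60 CPM, B-like cells 8.00 ± 1.36 CPM and plasma-like cells 5.66 ± 1.53 CPM. Smooth muscle or mural-like and neutrophil-like cells were close to 0, with 5 UMIs in 546 and 2 UMIs in 442 control cells. Only those 2 UMIs lay behind the neutrophil-like mean. Pooled over the control mice they gave 0.80 CPM, with an exact 95% Poisson interval of 0.097 to 2.89 CPM. The endothelial-like mean divided by these limits gives 277 and 9.30, which covers counting error only. The ratio of 63.2 used the unweighted mean over mice, 0.43 CPM, so this range is not an interval of that ratio. Against plasma-like cells, the lowest of those 10 classes with more than 3 UMIs, the ratio was 4.75.

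The share of cells with at least 1 Sting1 UMI moved with the depth of the cells as well as with the level. It was 27.3% ± 2.76 of cholangiocyte-like cells (median 13830 UMIs per cell), 21.1% ± 4.50 of endothelial-like cells (9769), 9.91% ± 2.28 of NK or ILC1-like cells (6535) and 3.82% ± 1.31 of B-like cells (5202). Neutrophil-like cells, set beside these because their Sting1 level was the lowest, had 0.23% ± 0.39 at a median of 3955 UMIs. That share is low by this choice and comes from shallower cells, so it does not measure false detection in the other classes. With every cell thinned to 2000 UMIs, endothelial-like cells came first with 5.79% of cells, ahead of 4.07% of NK or ILC1-like, 3.70% of cholangiocyte-like and 1.60% of B-like cells. Most cells of every class therefore had no Sting1 UMI at this depth, which does not show that they lack the message.

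**Figure D2:**
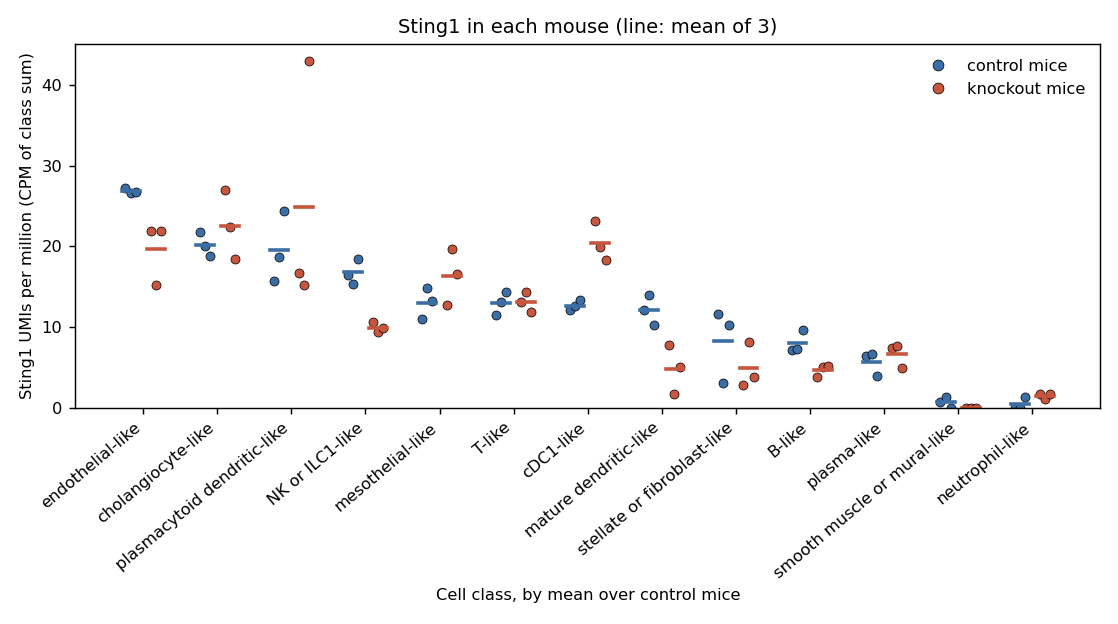
Sting1 level (y axis, CPM of class sums) in each of the 3 control (blue) and 3 knockout (red) mice by cell class (x axis, ordered by the control mean); lines are means of 3. Endothelial-like, NK or ILC1-like, B-like and mature dendritic-like cells have all knockout points below all control points, and cDC1-like cells have them above. The mature dendritic-like points rest on few UMIs and were not tested.

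The DNA sensors had another distribution than the adaptor. Cgas, the enzyme that makes cGAMP (chr9:78430526-78443237 in GRCm38, GENCODE M21 annotation), was highest in stellate or fibroblast-like cells (31.5 ± 15.0 CPM), endothelial-like cells (27.6 ± 9.93 CPM) and neutrophil-like cells (22.6 ± 19.9 CPM), 3 classes whose ranges overlapped. It was low in B-like cells (3.26 ± 1.46 CPM) and plasma-like cells (1.27 ± 1.12 CPM). Endothelial-like cells, the class highest in the adaptor Sting1, were thus also among the 3 classes highest in Cgas. They were not alone in having both. NK or ILC1-like cells had control means of 16.6 CPM of Cgas and 16.8 CPM of Sting1, and a dividing T-like cluster described below had both as well. Neutrophil-like cells had Cgas with almost no Sting1, and B-like cells had little of either. Over the 13 named classes, Pearson's r between the mean log2(CPM + 1) of Cgas and Sting1 was 0.0038, a description of 13 points that share the same 6 mice. The 5 genes of 13080 whose pattern over classes was most like that of Sting1 were Galk2, Zfp277, Gm7072, Zfp995 and Eml3 (r from 0.85 to 0.86); for Cgas they were Tmem164, Wbp1l, Tbkbp1, Plau and Pxn (r from 0.82 to 0.91). The likest member was Irf3 for Sting1 (r = 0.49) and Ifi204 for Cgas (r = 0.53).

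Ifi204 (chr1:173747293-173766943), a mouse relative of human IFI16 from the family of interferon-inducible DNA-binding proteins, was a gene of stromal and lining cells in these livers. Stellate or fibroblast-like cells had 119 ± 36.2 CPM, endothelial-like cells 57.2 ± 33.1 CPM and mesothelial-like cells, which cover the liver surface, 39.9 ± 8.10 CPM. In lymphocytes it was close to 0: the control means were 1.77 CPM in T-like, 1.66 in NK or ILC1-like and 0.42 in B-like cells. Neutrophil-like, mature dendritic-like and cDC1-like cells lay between these groups, at 11.8 to 12.3 CPM. Ifi204 belongs to a cluster of closely related genes, and reads shared between them can be split or lost in counting, so its levels are uncertain.

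Within the endothelial-like cells, Sting1 had overlapping ranges in the 3 larger subtypes, while both sensors were low in the lymphatic cells of the control mice. Sting1 had control means of 26.8 ± 6.36 CPM in venous or large-vessel-like cells (1219 cells, cluster 10, led by Rspo3, Selp and Vwf), 25.1 ± 3.57 CPM in arterial-like cells (871 cells, cluster 18) and 24.2 ± 8.21 CPM in lymphatic-like cells (335 cells, cluster 24), with overlapping ranges. Cgas was 27.1 ± 1.94 and 34.4 ± 15.5 CPM in the venous and arterial subtypes and 15.7, 8.66 and 10.7 CPM in the lymphatic cells of the 3 control mice, below every control venous value; the knockout lymphatic cells had 0, 22.7 and 11.3 CPM. Ifi204 was 61.9 ± 13.3 CPM in venous, 49.7 ± 28.0 CPM in arterial and 7.84, 5.77 and 15.0 CPM in lymphatic cells. The few sinusoidal-like cells had much Ifi204. The 93 such cells of control mouse 3 had 288 CPM of Ifi204 and 76.8 CPM of Cgas. The 84 of knockout mouse 1 had 337 CPM of Ifi204 and 33.9 CPM of Cgas, the latter below the 38.3 CPM of its arterial-like cells. The other 4 mice gave only 5 to 19 sinusoidal-like cells each, with 0 UMIs of Ifi204 in the 8 cells of control mouse 2 and 178 to 331 CPM elsewhere, so no test was made in this subtype.

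**Figure D3:**
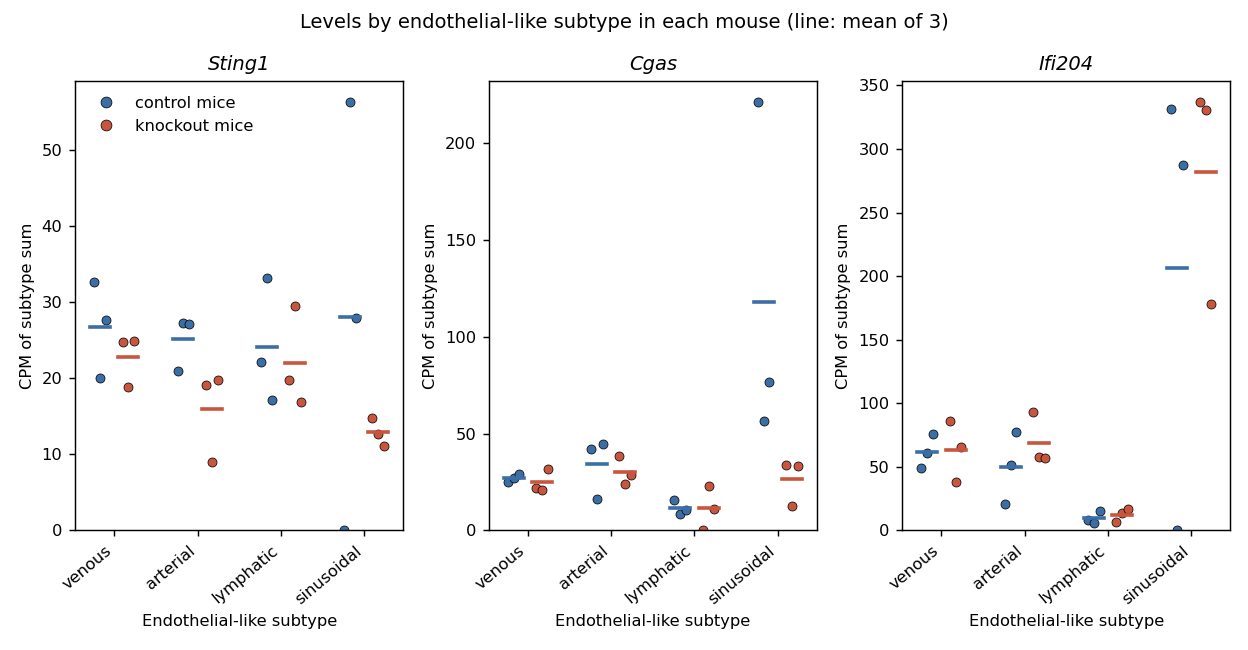
Levels (y axes, CPM of subtype sums) of Sting1, Cgas and Ifi204 in 4 endothelial-like subtypes (x axes) for each control (blue) and knockout (red) mouse; lines are means of 3. Ifi204 is low in lymphatic-like cells (5.77 to 16.9 CPM) and highest on average in sinusoidal-like cells, where 4 of the 6 mice have fewer than 20 cells.

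Of the kinases, Tbk1 (chr10:121546455-121586787) was found everywhere and was highest in plasmacytoid dendritic-like (225 ± 26.4 CPM) and B-like cells (222 ± 44.2 CPM). All control values in these 2 classes were above those of neutrophil-like cells (135 ± 25.9 CPM), and mesothelial-like cells were lowest at 45.0 ± 8.51 CPM. Ikbke (chr1:131254343-131279606) shared the neutrophil-like cells but not the B-like cells as a place of high expression. It was 45.7 ± 3.18 CPM in neutrophil-like, 30.6 ± 1.87 CPM in T-like and 25.4 ± 5.71 CPM in NK or ILC1-like cells, but 5.22 ± 1.48 CPM in B-like cells, and only 5 UMIs were counted in the 565 cDC1-like cells of the control mice. The antisense genes Gm28914 and Gm28913 overlap Ikbke and are in the gene table. The use of strand in counting is not given in the sources used here, so whether any reads of these genes entered the Ikbke count is not known. Irf3 (chr7:44997648-45002848), the transcription factor, was the most even member: 12 of the 13 classes had control means between 17.8 and 33.9 CPM, highest in mesothelial-like cells, and the neutrophil-like mean was below them at 8.23 ± 3.55 CPM. Irf3 overlaps Bcl2l12 on the opposite strand, with the same limit.

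The genes that restrain the pathway were each prominent in another cell class. Enpp1 (chr10:24637914-24712159), the ectoenzyme that hydrolyses extracellular cGAMP, marked plasma-like cells, with 62.0, 67.0 and 70.3 CPM in the control mice, against at most 25.2 CPM in any other class and control mouse. It was at 18.9 ± 2.50 CPM in cholangiocyte-like cells and at 2.76 ± 0.76 CPM in endothelial-like cells, where Sting1 and Cgas were high. Samhd1 (chr2:157097533-157135265), which breaks down deoxynucleotides and limits the DNA that can be made or left in the cytosol, was highest in neutrophil-like (293 ± 168 CPM), mature dendritic-like (226 ± 19.0 CPM) and cDC1-like cells (177 ± 10.7 CPM). It was lowest in cholangiocyte-like cells, at 25.4, 25.8 and 26.4 CPM. Nlrc3 (chr16:3945007-3976632), a cytosolic NLR protein described as a brake on STING and TBK1, was a gene of NK or ILC1-like (56.5 ± 4.46 CPM) and T-like cells (43.9 ± 1.38 CPM), was at 9.18 ± 2.12 CPM in B-like cells, and had control means below 6 CPM in all other classes.

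Trex1, the exonuclease that degrades cytosolic DNA, had 0 UMIs in all 44656 barcodes. In the GENCODE M21 annotation Trex1 (chr9:109057933-109059734) lies on the same strand inside Atrip (chr9:109057933-109074124), which ends at the same base, and all 1147 exonic bases of Trex1 are also exonic in Atrip. Atrip itself had 4157 UMIs in these barcodes. Which of the 2 genes those molecules come from cannot be told apart in the deposited counts, and the 0 of Trex1 says nothing of its expression.

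T-like cells were the largest class, and its 8 clusters differed in these genes. Sting1 was highest in cluster 20, the cells with the division genes Mki67 and Top2a among its leading genes. Its level there was 23.7 to 34.2 CPM over the 6 mice, against 18.2 CPM as the highest value of any mouse in the other 7 clusters. Cgas was also highest on average there, at 22.5 ± 10.5 CPM in control and 21.4 ± 3.23 CPM in knockout mice (n = 3 each), with a range (16.2 to 34.7 CPM) that overlapped those of other clusters. Tbk1 (121 to 168 CPM) and Samhd1 (178 to 225 CPM) had their highest means in cluster 5, with Ikzf2, Ctla4 and Foxp3 among its leading genes, which mark regulatory T cells. Ikbke was highest in cluster 11, led by Lef1 and Dapl1 (47.3 to 65.8 CPM), and was 11.5 to 21.6 CPM in the dividing cells. Nlrc3 had its lowest mean in cluster 11 (4.37 to 34.1 CPM). Cluster 13 came mostly from control mouse 1, with 730 of its 1011 cells. The clusters were formed from the same counts, so these differences are descriptions.

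**Figure D4:**
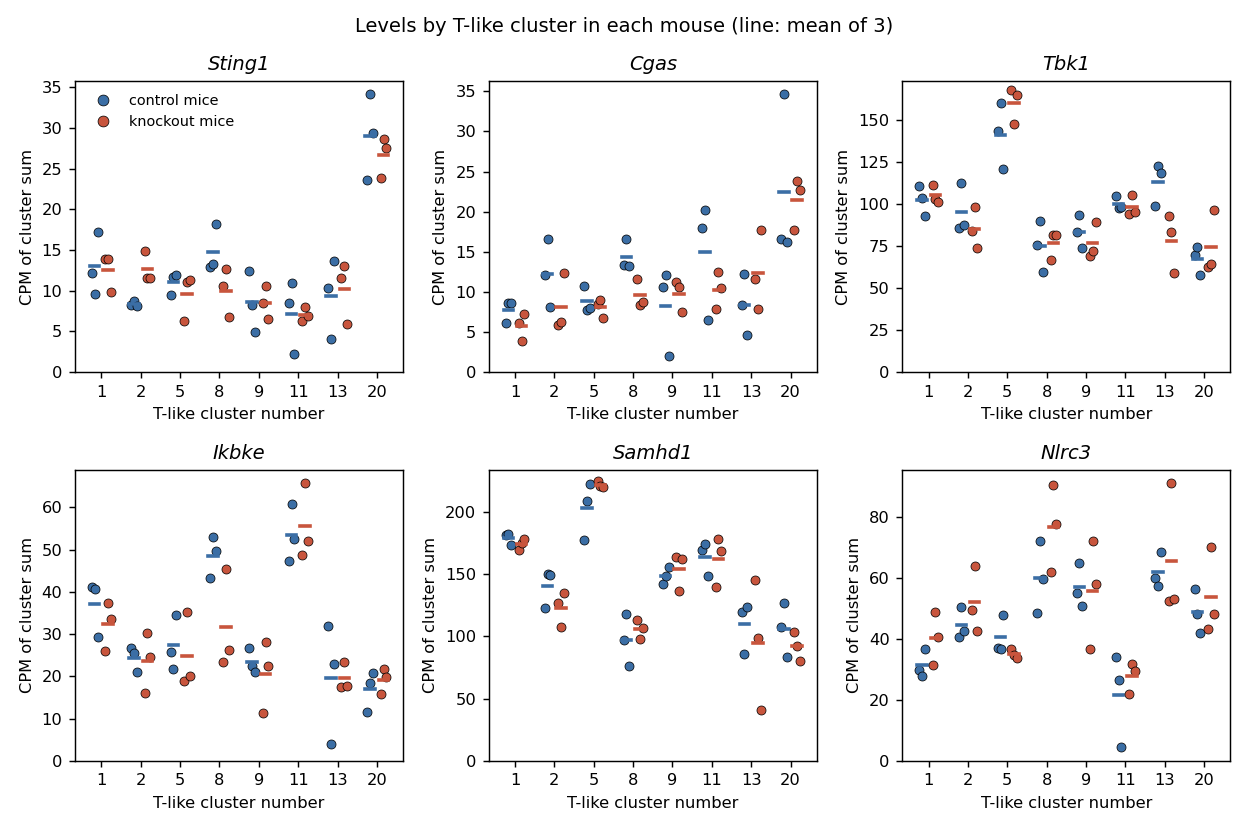
Levels (y axes, CPM of cluster sums) of 6 genes in the 8 T-like clusters (x axes, cluster numbers) for each control (blue) and knockout (red) mouse; lines are means of 3. Cluster 20 has the highest Sting1 in every mouse, cluster 5 the highest mean Tbk1 and Samhd1, and cluster 11 the highest mean Ikbke.

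Knockout and control mice were then compared in each of those 10 classes, on counts summed per mouse, with edgeR's quasi-likelihood test and Benjamini-Hochberg adjustment over all genes tested in the class. The 9 genes with UMIs passed the filter on low counts in 72 gene and class combinations, 5 to 9 genes a class. None had an adjusted p under 0.05, and the lowest was 0.199. The share of all tested genes that passed was itself 0 in 8 of the classes, 0.0103% in NK or ILC1-like and 0.00769% in T-like cells. At an unadjusted p under 0.05 edgeR gave 6 of the 72. DESeq2 gave 0 adjusted and 4 unadjusted. The shares of all genes below are edgeR's, so those 4 have no share to be read against. The 6 of edgeR were Sting1 in endothelial-like, B-like, NK or ILC1-like and cDC1-like cells, Cgas in NK or ILC1-like and Irf3 in mesothelial-like cells. The share of all genes with an unadjusted p under 0.05 was 6.42%, 6.02%, 6.37% and 7.13% in the first 4 classes and 17.2% in mesothelial-like cells. In the other 5 it was 9.83% (cholangiocyte-like), 5.88% (T-like), 5.73% (plasma-like), 4.61% (neutrophil-like) and 3.22% (stellate or fibroblast-like). In sums over cells, fewer cells with an active gene and less RNA per cell cannot be told apart.

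Sting1 in the endothelial-like cells was 27.3, 26.6 and 26.8 CPM in the control mice and 22.0, 15.2 and 22.0 CPM in the knockout mice. The groups did not overlap, yet the knockout mice kept most of the signal (19.7 ± 3.93 against 26.9 ± 0.37 CPM). The log2 fold change was -0.48 (SE 0.17), with an unadjusted p of 0.0231 and an adjusted p of 0.763 (edgeR). Of all genes tested in this class, 4.06% had non-overlapping groups with the knockout lower. The share of endothelial-like cells with a Sting1 UMI was 24.6%, 16.1% and 22.7% in control and 18.2%, 15.5% and 21.7% in knockout mice, with overlap (exact two-sided permutation p = 0.4). Thinned to 2000 UMIs it was 6.84%, 5.50% and 5.04% against 4.24%, 2.70% and 4.59%, without overlap (exact p = 0.1, the smallest that 3 against 3 allows).

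The summed levels of some marker lists also differed between the groups in these cells. The summed level of the 10 endothelial markers was 6686 to 7273 CPM in control and 8017 to 9051 CPM in knockout mice. Markers of T cells, all 12 of which had UMIs, summed to 118 to 147 CPM in control and 75.2 to 120 CPM in knockout mice, and the 9 NK or ILC1 markers to 21.7 to 44.1 against 11.6 to 24.3 CPM. Both lists overlapped between the groups, as did the 9 B markers, at 241 to 477 against 236 to 568 CPM. Those of smooth muscle (8 of 8 with UMIs) summed to 32.5 to 55.5 CPM in control and 18.0 to 28.6 CPM in knockout mice, and those of monocytes (8 of 8) to 238 to 254 against 177 to 237 CPM. The 7 plasmacytoid dendritic markers summed to 1114 to 1188 CPM in control and 1222 to 1360 CPM in knockout mice, without overlap. The part of these markers in the result was not tested. With the 448 endothelial-like cells left out that held a UMI of a few chosen lymphocyte genes, the log2 fold change of Sting1 was -0.39 (unadjusted p = 0.059, edgeR). This filter leaves cells with other lymphocyte transcripts, so it does not measure the part of lymphocyte RNA. By subtype, arterial-like cells had 21, 27.2 and 27.1 CPM in control and 19.1, 8.97 and 19.8 CPM in knockout mice, without overlap (log2 fold change -0.75, SE 0.31, unadjusted p = 0.0321, adjusted p = 0.999, edgeR). Of the genes tested there, 2.98% had such lower groups, 3.65% an unadjusted p under 0.05 and 0% an adjusted one. Venous or large-vessel-like (log2 fold change -0.27, SE 0.23) and lymphatic-like cells (-0.29, SE 0.37) had overlapping groups; 0% and 0.105% of genes had an adjusted p under 0.05 in these subtypes. In the sinusoidal-like cells, Sting1 was 27.9 CPM (20 UMIs) in control mouse 3 and 14.8 CPM (7 UMIs) in knockout mouse 1, the only mice with more than 20 such cells.

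Sting1 was also lower in all knockout mice than in any control mouse in 2 lymphocyte classes. In NK or ILC1-like cells it was 16.5, 15.3 and 18.5 CPM in control and 10.6, 9.38 and 9.83 CPM in knockout mice (log2 fold change -0.77, SE 0.22, unadjusted p = 0.0035, adjusted p = 0.618, edgeR). In B-like cells it was 7.16, 7.27 and 9.57 CPM against 3.84, 5.07 and 5.16 CPM (log2 fold change -0.79, SE 0.23, unadjusted p = 0.0044, adjusted p = 0.551, edgeR). In these classes 4.21% and 4.87% of all tested genes had non-overlapping lower groups. The Cre promoter is one of endothelial cells, yet the fitted fold change there was not the larger one: the difference of the effects, endothelial-like minus the other class, was 0.32 (SE 0.29) for NK or ILC1-like and 0.32 (SE 0.28) for B-like cells. The summed endothelial markers were 228 to 258 CPM in the control and 179 to 217 CPM in the knockout NK or ILC1-like cells, without overlap, and overlapped in B-like cells. The 9 mesothelial markers were higher in the knockout NK or ILC1-like cells, at 5.01 to 8.14 against 8.84 to 11.7 CPM. In B-like cells the 9 sinusoidal markers summed to 50.6 to 67.3 CPM in control and 33.3 to 47.5 CPM in knockout mice. The 7 plasma cell markers summed to 77.7 to 102 against 61.7 to 71.4 CPM there, and the macrophage markers to 17.4 to 18.9 against 11.1 to 12.6 CPM (5 of 10 with UMIs; C1qa, C1qb, C1qc, Clec4f and Marco were at 0). The part of these markers in the result was not tested. In T-like cells the groups differed by less than their spread, at 13 ± 1.44 and 13.1 ± 1.27 CPM (log2 fold change 0.01, SE 0.13).

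In cDC1-like cells, which take up dead cells and cross-present antigen, the direction was the opposite. Sting1 was 12.1, 12.6 and 13.3 CPM in the control and 23.2, 19.9 and 18.4 CPM in the knockout mice, with a gap between the groups (log2 fold change 0.63, SE 0.24, unadjusted p = 0.0185, adjusted p = 0.611, edgeR). Of all genes tested there, 8.03% had non-overlapping higher groups. The share of cDC1-like cells with a Sting1 UMI was 13.4%, 8.96% and 17.6% in control and 30.6%, 18.4% and 24.8% in knockout mice (exact two-sided permutation p = 0.1). Their depth differed as well: control mouse 2 had a median of 5775 UMIs per cell and the other 5 mice 14340 to 16900, and thinned to 2000 UMIs the shares overlapped (2.26% ± 1.68 against 6.44% ± 3.83, exact p = 0.3). The 9 cDC1 markers summed to 3884 to 4284 CPM in control and 4679 to 4817 CPM in knockout mice, and the 9 B markers to 27.6 to 89.7 against 98.2 to 242 CPM; the 8 venous endothelial markers were lower, at 20.7 to 27.0 against 15.8 to 18.0 CPM. With the 160 cDC1-like cells left out that held a UMI of the same chosen lymphocyte genes, the log2 fold change of Sting1 was 0.56 (unadjusted p = 0.0565, edgeR). The part of the cDC1, B and venous markers was not tested.

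The difference between classes was put to a test of its own. The effect in endothelial-like cells minus the mean effect of the other 9 tested classes was -0.46 (SE 0.22, unadjusted p = 0.0462, adjusted p = 1, edgeR), and 0% of 16218 genes passed that test. In 2 of those 9, neutrophil-like and stellate or fibroblast-like cells, Sting1 itself did not pass the filter on low counts (12 and 34 UMIs over the 6 mice). Against the mean of the 7 classes with a Sting1 test of their own, the contrast was -0.44 (SE 0.19, unadjusted p = 0.0219, adjusted p = 0.778, edgeR). With all 9 it was -1.16 without control mouse 3 and -0.27 without knockout mouse 2. Against cDC1-like cells alone the difference was -1.10 (SE 0.29, unadjusted p = 0.000489, adjusted p = 0.466, edgeR), a test that 0.0123% of genes passed. The same contrast with the mean of the others gave -0.82 (SE 0.26) for B-like, -0.82 (SE 0.27) for NK or ILC1-like and 0.76 (SE 0.28) for cDC1-like cells, with adjusted p of 0.798 or more. No difference in effect between endothelial-like cells and the other classes passed the adjusted threshold.

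In the other tested classes the Sting1 groups overlapped. Cholangiocyte-like cells had 20.2 ± 1.47 CPM in control and 22.6 ± 4.28 CPM in knockout mice, mesothelial-like cells 13 ± 1.92 and 16.4 ± 3.48 CPM, and plasma-like cells 5.66 ± 1.53 and 6.67 ± 1.50 CPM. Mature dendritic-like cells were too few for a test: 12.1, 14.0 and 10.3 CPM from 27 control UMIs stood against 7.80, 1.71 and 5 CPM from 5 knockout UMIs. Every knockout value was below every control value, but the share of all genes with such groups was not computed in this class. Plasmacytoid dendritic-like cells, which hold Cdh5 message, had 15.7, 18.6 and 24.3 CPM against 16.7, 15.2 and 43.0 CPM, from 11 and 28 UMIs, with overlap.

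**Figure D5:**
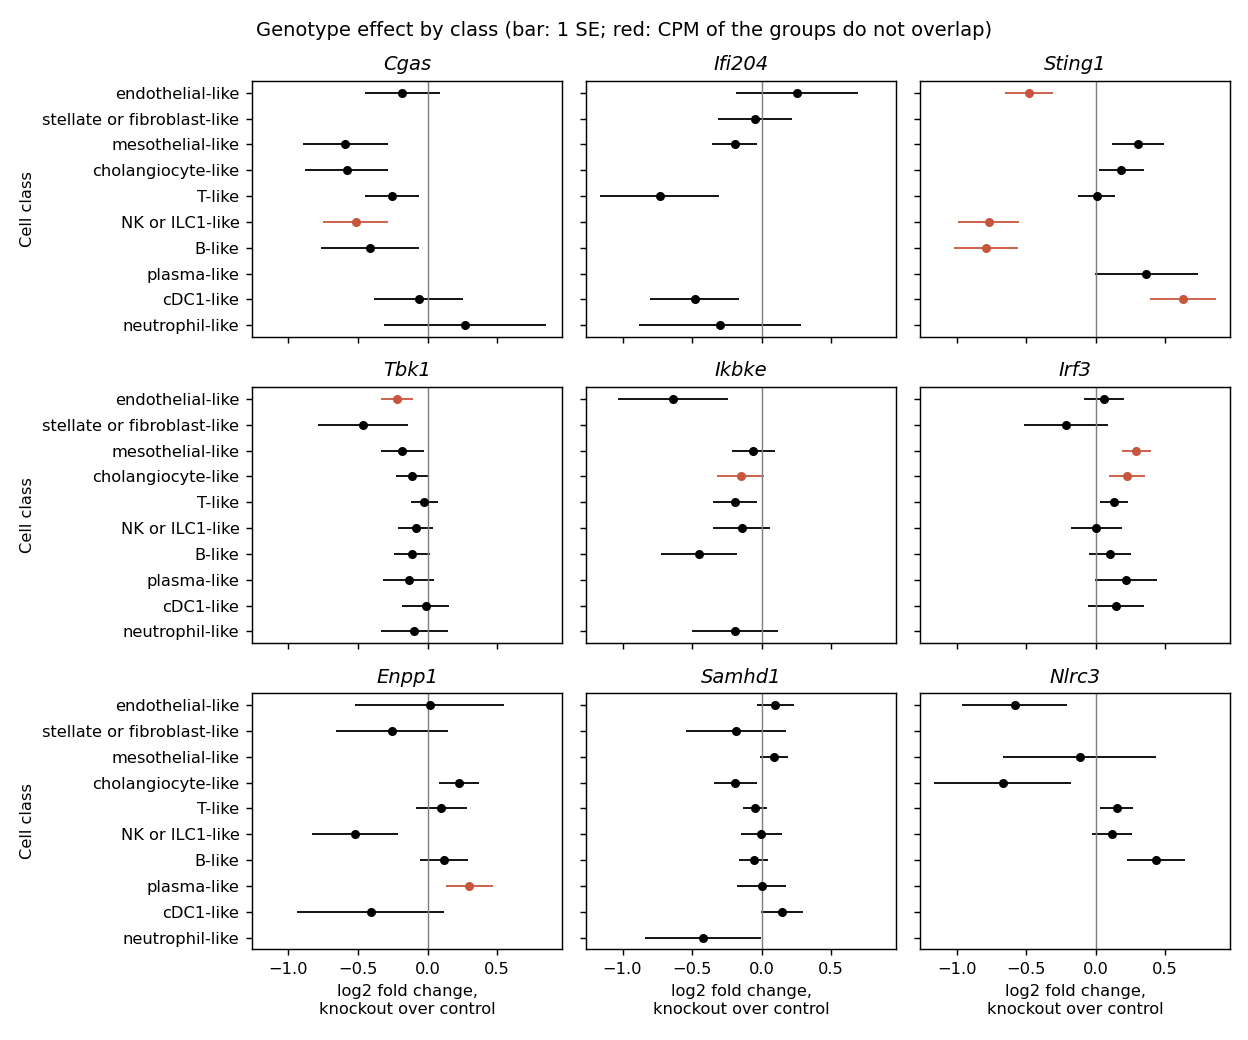
Log2 fold change, knockout over control, with 1 SE (x axes) of 9 genes in the tested cell classes (y axes), from edgeR fits of counts summed per mouse; red marks genes whose CPM did not overlap between groups, and a missing point is a gene below the filter on low counts. None of the 72 points has an adjusted p under 0.05, and Sting1 has red points on both sides of 0.

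Of the sensors, Cgas in NK or ILC1-like cells was 14.5, 14.2 and 21.3 CPM in control and 11.9, 12.1 and 10.3 CPM in knockout mice, without overlap (log2 fold change -0.52, SE 0.24, unadjusted p = 0.0459, adjusted p = 0.771, edgeR). In endothelial-like cells Cgas overlapped widely, at 27.6 ± 9.93 and 25.3 ± 3.20 CPM. Its log2 fold change there was -0.18 (SE 0.27), and 0.17 without control mouse 3. In stellate or fibroblast-like cells it did not pass the filter on low counts, with 46.4, 31.8 and 16.5 CPM in control and 8.28, 14.2 and 14.0 CPM in knockout mice. The fitted log2 fold change of Cgas was below 0 in 7 of the 8 classes tested, a split that 25.8% of genes tested in 8 classes reached in 1 direction or the other; the classes come from the same mice and are not independent.

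Ifi204 varied widely between mice of the same group. In endothelial-like cells it was 35.3, 41.1 and 95.3 CPM in control and 105, 52.1 and 59.6 CPM in knockout mice (log2 fold change 0.26, SE 0.44). The 2 high mice, control 3 and knockout 1, were the 2 with the most sinusoidal-like cells; in the venous or large-vessel-like cells alone the values were 49.3, 60.6 and 75.8 against 86.4, 37.8 and 65.7 CPM (log2 fold change -0.02, SE 0.27). In arterial-like cells alone they were 21, 51.1 and 77.1 against 93.0, 57.6 and 56.7 CPM (log2 fold change 0.23, SE 0.36). The same 2 mice were the highest of their groups in both subtypes. The part of sinusoidal-like cells in the endothelial-like values was not tested. Stellate or fibroblast-like cells, where Ifi204 was highest, had the same mean in both groups (119 ± 36.2 and 119 ± 20.7 CPM).

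Tbk1 had fitted log2 fold changes below 0 in all 10 classes (9 with library totals as the scaling), from -0.46 to -0.01, with no adjusted p under 0.05; 12.1% of the genes tested in all 10 classes had 1 direction throughout. In endothelial-like cells it was 83.1, 95.5 and 79.4 CPM in control and 76.5, 75.2 and 77.9 CPM in knockout mice, without overlap (log2 fold change -0.22, SE 0.11, unadjusted p = 0.0849, adjusted p = 0.766, edgeR). Ikbke had fold changes below 0 in all 7 classes in which it was tested, which 10.3% of genes tested in 7 classes matched, and only in cholangiocyte-like cells did its groups not overlap (13.7 to 19.2 against 12.8 to 13.7 CPM, a gap smaller than the rounding, log2 fold change -0.15, SE 0.17; 9.59% of genes there had such lower groups). Irf3 had the other direction, with fold changes above 0 in 8 of the 9 classes tested (25.1% of genes tested in 9 were as one-sided). Its groups did not overlap in mesothelial-like cells, with 36.5, 34.3 and 30.9 CPM in control and 42.2, 45.0 and 38.8 CPM in knockout mice (log2 fold change 0.29, SE 0.10, unadjusted p = 0.0155, adjusted p = 0.199, edgeR). They did not overlap in cholangiocyte-like cells either, at 25.6 ± 3.81 and 30.3 ± 1.79 CPM. Of all genes, 14.1% and 6.93% had non-overlapping higher groups in these 2 classes. Several marker lists moved with Irf3 in mesothelial-like cells. The 9 cholangiocyte markers summed to 572 to 761 CPM in control and 820 to 891 CPM in knockout mice, the 9 mesothelial markers to 6477 to 6822 against 6994 to 7484 CPM, and the 8 arterial markers to 20.6 to 24.7 against 12.1 to 19.3 CPM. In cholangiocyte-like cells the 9 mesothelial markers (311 to 415 against 424 to 533 CPM) and the 8 hepatocyte markers (3816 to 4101 against 4240 to 4335 CPM) were higher in the knockout, and the 8 arterial markers lower (52.5 to 63.8 against 44.2 to 48.6 CPM). The lymphatic, mast cell and erythroid lists were also lower there without overlap, the lymphatic one at 299.8 to 333 against 282 to 299.6 CPM and the other two below 4 CPM. The part of these markers in the results was not tested.

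Among the brakes, Enpp1 in plasma-like cells was 67.0, 62.0 and 70.3 CPM in control and 70.9, 74.4 and 79.6 CPM in knockout mice, a narrow gap (log2 fold change 0.30, SE 0.17, unadjusted p = 0.0941, adjusted p = 0.872, edgeR), in a class where 2.26% of genes had non-overlapping higher groups. In the same cells the 9 B markers summed to 1138 to 1343 CPM in control and 989 to 1121 CPM in knockout mice and the 8 monocyte markers to 231 to 360 against 373 to 599 CPM; their part was not tested. Samhd1 overlapped between the groups in all 10 classes, with log2 fold changes from -0.42 in neutrophil-like to 0.14 in cDC1-like cells. Nlrc3 overlapped in every class in which it was tested; in B-like cells it was 9.18 ± 2.12 and 12.6 ± 2.26 CPM (log2 fold change 0.43, SE 0.21, adjusted p = 0.856, edgeR).

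The other genes of the pathway were taken from 8 lists of 101 genes, 99 of them in the gene table, and gave 778 gene and class tests, of which none had an adjusted p under 0.05. Of the 105252 tests of all genes in these classes, 4.2% were lower and 3.58% higher in the knockout at an unadjusted p under 0.05. At that p, the outputs of the pathway (interferon-stimulated genes and chemokines) had 29 of 96 tests lower and 1 higher in the knockout. Their median log2 fold change was -0.99 in neutrophil-like (6 genes tested), -0.80 in NK or ILC1-like, -0.78 in cDC1-like and -0.44 in mesothelial-like cells. It was -0.37 in B-like and in plasma-like, -0.25 in T-like, -0.13 in cholangiocyte-like, -0.11 in endothelial-like and -0.10 in stellate or fibroblast-like cells. The median of all genes in these classes lay between -0.01 and 0.02. The adaptors of the kinases and their downstream factors had 23 of 171 tests lower and 1 higher. STING trafficking, with 5 tests lower (3.07% of its tests) and 4 higher (2.45%), did not exceed the shares of all genes. Nucleases had 4 of 54 higher and 2 lower, cGAMP transport 3 of 68 higher and 8 lower, and other DNA sensors 3 higher (2.68% of tests) and 11 lower (9.82%). Parallel RNA-sensing arms had 1 of 47 higher and 6 lower, and the interferon receptor and its factors 1 of 67 in each direction. The tests of a list repeat its genes over classes from the same mice, so these counts are not of independent results. The lists were also written with earlier results of these data known, so their direction is no independent evidence.

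The genes described here are from those among the 3 lowest p-values of a list in endothelial-like, B-like, NK or ILC1-like, T-like or cDC1-like cells whose unadjusted p was also under 0.01, a limit set after the values were seen. These were 20 gene and class pairs of 16 genes. The fold change was below 0 in 18 pairs and above 0 in 2, and none passed the adjusted threshold; since low p-values chose the pairs, no count of non-overlapping groups is read from them. Oasl1, an interferon-stimulated gene, came nearest: it was 61.4 ± 8.30 CPM in control and 26.1 ± 8.40 CPM in knockout cDC1-like cells (log2 fold change -1.30, SE 0.22, adjusted p = 0.0683, edgeR). Rsad2 and Ccl5 had log2 fold changes of -1.41 and -1.25 in the same cells. Rsad2, an antiviral interferon-stimulated gene, went the other way in endothelial-like cells, a row outside that p limit and named after its value was seen. It was 17.8 ± 10.7 CPM in control and 36.6 ± 3.77 CPM in knockout mice, without overlap (log2 fold change 0.91, SE 0.38, unadjusted p = 0.0464, adjusted p = 0.763, edgeR), in a class where 9.78% of genes had non-overlapping higher groups. Cxcl10, a chemokine induced by interferon, was 163.3 ± 65.8 and 47.5 ± 17.1 CPM in NK or ILC1-like cells (log2 fold change -1.76), 151 ± 41.3 and 79.0 ± 20.3 CPM in T-like cells (-0.94) and 13.5 ± 2.98 and 5.41 ± 1.76 CPM in B-like cells (-1.37). The kinase adaptors Traf3 and Tank had log2 fold changes of -0.45 and -0.54 in NK or ILC1-like cells (overlapping for Tank), Optn -0.41 in B-like and Traf6 -0.48 in cDC1-like cells. Ifi211, a relative of Ifi204, had -0.64 in NK or ILC1-like and -0.71 in T-like cells, and the RNA sensor gene Ifih1 -0.98 in T-like cells. Also below 0 were Ifit1 in NK or ILC1-like (-1.67, overlapping), Oasl1 in T-like (-1.06), the transporter gene Abcc1 in B-like (-0.34) and Rhbdf2 in cDC1-like cells (-0.94). The exceptions were Rnaseh2a, a subunit of the nuclease that removes RNA from RNA-DNA hybrids, with 14.8 ± 3.46 and 29.2 ± 5.48 CPM in cDC1-like cells, and Tmem203, a STING partner, with 10.3 ± 1.50 and 18.4 ± 3.62 CPM in endothelial-like cells. Ifnb1, the interferon gene that IRF3 drives, had 227 UMIs in all kept control cells and 123 in all kept knockout cells, too few for a description by class.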

How the data were processed

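The deposited files are raw UMI counts per gene and cell barcode, 1 matrix per mouse; the authors made them with Cell Ranger 7.1.0 against mm10, per the submitters' processing notes, which also name Seurat 4.1.1. The annotation release is not given in the sources used here. How reads shared between overlapping or related genes were counted is likewise not given, which bears on Trex1 and Ifi204.

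Barcodes with fewer than 300 detected genes or over 20% of UMIs from mitochondrial genes were removed, and 938 likely doublets (Scrublet score above 0.2667) were left out; the automatic threshold of the doublet caller gave 0 and 1 calls in 2 control libraries. Cells formed 34 clusters, named from marker lists; the scoring rule for names was set after marker scores were seen. Counts were summed per mouse and class, and knockout and control were compared with edgeR's quasi-likelihood test (version 4.0.16, TMM scaling, filterByExpr, tested on simulated data) and Benjamini-Hochberg adjustment over all genes of the class. CPM are plain shares of the summed UMIs, whereas fold changes come from the fits. The labels give 1 mouse per library.

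The members and lists were chosen with earlier results of these data known. All members are reported in every class; list genes were named by the 3 lowest p-values per list and class, and 1 of those counted is not reported here. Alternatives were DESeq2 (version 1.42.0), other scaling and filters, doublets kept, clustering resolution, a replicate block, leaving out each mouse and thinning of UMIs; leaving out cDC1-like cells with lymphocyte UMIs, and classes without a Sting1 test, was chosen after seeing the data. Promoter sequences are from RefSeq (GRCm38.p6) and gene positions from GENCODE M21 (GRCm38).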

Additional observations from a re-analysis of the deposited data

Results flagged for a closer look

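In 3 of the 10 tested classes every knockout mouse had less Sting1 than every control mouse, and in 1 every knockout mouse had more. The log2 fold change was -0.48 in endothelial-like, -0.79 in B-like and -0.77 in NK or ILC1-like cells and 0.63 in cDC1-like cells. Of all genes tested, 4.06%, 4.87% and 4.21% had such lower groups in the first 3 of these classes, and 8.03% such higher groups in cDC1-like cells. The adjusted p of Sting1 in these classes was 0.551 to 0.763 (edgeR's quasi-likelihood test). Thinned to equal depth, the shares of cDC1-like cells with a Sting1 UMI overlapped. The difference of the effects, endothelial-like minus cDC1-like, was -1.10 with an adjusted p of 0.466 (edgeR's quasi-likelihood test); the differences of B-like and of NK or ILC1-like from cDC1-like cells were not tested.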

How the results depend on the processing

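The fold change of Sting1 in endothelial-like cells stayed below 0 in all 15 alternatives (-0.59 to -0.34, adjusted p from 0.375 to 1), as did those in B-like (-0.86 to -0.64) and NK or ILC1-like cells (-0.86 to -0.69) in 14 each, and that in cDC1-like cells stayed above 0 in 15 (0.51 to 0.70). No member passed the adjusted threshold in any of the 14 alternatives run over the 10 classes, DESeq2 included, or in the 2 that left out cells of 1 class. The contrast of endothelial-like with the other classes ranged from -1.16 (without control mouse 3, which held the control neutrophil-like UMIs of Sting1) to -0.27 (without knockout mouse 2) in 14 alternatives, one of them, without the 2 classes that had no Sting1 test, chosen after seeing the data (-0.44), and the difference in the share of cells with a Sting1 UMI from -5.20 to -0.24 percentage points. Leaving out each mouse moved Cgas in endothelial-like cells between -0.43 and 0.17, the latter without control mouse 3. The highest-to-lowest ratio of Sting1 over classes was 109 from means over cells, and 41.8 and 42.4 without control mouse 1 or 2. Without control mouse 3 the lowest class had no UMI and no ratio could be formed. In each case 2 UMIs or fewer lay behind the lowest class.

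With the replicate number as a block, Sting1 in endothelial-like cells was at -0.51 (adjusted p = 0.718, edgeR) and 0 members were called, while calls over all genes and classes went from 2 to 56; it changed no other call of a member. The labels do not say whether the numbers pair the mice. In endothelial-like cells same-numbered mice deviated together with correlations of -0.10, 0.26 and 0.02. Over the tested classes these correlations ran from -0.21 (mesothelial-like, number 1) to 0.31 (neutrophil-like, number 1). With so few mice they cannot decide whether mice were paired. With 3 mice a group and 2 to 574 control UMIs of Sting1 a class, small differences could not be detected. Over all genes and classes, DESeq2 called 470, the fit with no filter 622, doublets kept 5, library totals 4, and the stricter cell filter 1. Leaving out a mouse gave 3 to 103.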
